A study of Mus musculus with 7 samples.

Results

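Fibrillar collagens I, III and V are represented by 6 genes, Col1a1, Col1a2, Col3a1, Col5a1, Col5a2 and Col5a3. They were chosen by symbol, without a cut on any measured value, but with earlier results of these data known. All 6 were among the 56854 gene identifiers that the count files have in common, 29121 of them with any count and 17791 past the filter on low counts. All 6 members passed it. Their identifiers are ENSMUSG00000001506 (Col1a1, chromosome 11), ENSMUSG00000029661 (Col1a2, chromosome 6), ENSMUSG00000026043 (Col3a1, chromosome 1), ENSMUSG00000026837 (Col5a1, chromosome 2), ENSMUSG00000026042 (Col5a2, chromosome 1) and ENSMUSG00000004098 (Col5a3, chromosome 9).

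RNA was sequenced from whole shoulder joints of 7 mice, 1 library per mouse, 2 weeks after surgical repair of the supraspinatus tendon, 1 of the rotator cuff tendons, in the left shoulder. The mice were wild type (n = 3) or Tnc-/- (n = 4), the mutant for Tenascin C, a large glycoprotein of the extracellular matrix. Every mouse in both groups had the repair, so no unoperated joint enters the comparison, and neither the age and strain of the mice nor the way the Tnc allele was made is given in the labels. A whole joint holds tendon, bone, cartilage, muscle, marrow and vessels, so, in every level given here, fewer cells of a type and less RNA per cell cannot be told apart.

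Fibrillar collagens are made of 3 chains wound into a triple helix and assemble, after their end pieces are cut off, into the banded fibrils that carry load in tendon, ligament and bone. Col1a1 and Col1a2 encode the chains of type I, the main collagen of tendon and bone. Col3a1 encodes the single chain of type III, which is abundant in healing tissue, and Col5a1, Col5a2 and Col5a3 encode chains of type V, a minor collagen that starts fibrils and limits their diameter.

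What these genes share in sequence is the repeat that forms the helix, a run of triplets in which each glycine codon is followed by 2 other codons. In the mouse transcripts of GENCODE release M21 (assembly GRCm38), the longest unbroken run held 338 triplets in Col1a1, 339 in Col1a2, 344 in Col3a1, 338 in Col5a1, 339 in Col5a2 and 337 in Col5a3. A stretch of 10 triplets, 90 bases of coding exon, from the middle of each run is shown. The runs are nearly the same in length yet differ in base composition. The comparison of counts below uses the GC content of the longest transcript, not that of the run. Glycine codons are in capitals and the other bases in lower case, read 5′ to 3′ on the coding strand.
Col1a1: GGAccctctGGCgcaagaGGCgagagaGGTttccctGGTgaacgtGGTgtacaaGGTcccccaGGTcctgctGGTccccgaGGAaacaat
Col1a2: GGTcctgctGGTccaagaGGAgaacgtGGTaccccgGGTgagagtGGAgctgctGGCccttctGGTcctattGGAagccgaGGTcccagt
Col3a1: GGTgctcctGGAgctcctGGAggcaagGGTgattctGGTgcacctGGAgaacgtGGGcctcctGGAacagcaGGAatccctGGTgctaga
Col5a1: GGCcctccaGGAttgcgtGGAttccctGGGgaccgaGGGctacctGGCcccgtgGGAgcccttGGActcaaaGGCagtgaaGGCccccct
Col5a2: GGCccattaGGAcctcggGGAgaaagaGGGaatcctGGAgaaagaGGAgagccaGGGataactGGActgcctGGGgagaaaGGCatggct
Col5a3: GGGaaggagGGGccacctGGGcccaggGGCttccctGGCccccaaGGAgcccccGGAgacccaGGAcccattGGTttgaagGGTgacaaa
The capitals begin with GG in every triplet and the base that follows varies. GC at the third codon position of the whole run was lowest in Col3a1, at 23.5%, and was 26.0% in Col5a2, 28.7% in Col1a2 and 31.6% in Col1a1. It was higher in Col5a1 and Col5a3, at 43.6% and 45.7%. GGT made up 55.9% of glycine codons in the Col1a1 run and 25.2% in that of Col5a3, whereas GGG made up 1.18% and 20.5%.

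The libraries held 13464057 to 18503833 gene counts in wild type and 19250322 to 28191101 in Tnc-/-. Tnc itself was counted 8137, 4394 and 5386 times in wild type 1 to 3 and 902, 698, 712 and 1051 times in Tnc-/- 1 to 4, which is -3.08 on the log2 scale in edgeR (SE 0.21, adjusted p = 2.8e-04), so some reads of the gene remained. Wild type 2 and 3 stood apart: 629 smell and pheromone receptor genes, which a joint should hardly use, summed to 1455 and 1042 CPM, counts scaled to a fixed total per library, there, against 86.2 in wild type 1 and 32.9 to 41.3 in Tnc-/-. For the 6 collagen genes this background was small, at most 1.23% of a member's counts (Col5a3 in wild type 2). The biological coefficient of variation, a measure of spread between libraries of a group, was 0.172 in Tnc-/- and 0.591 in wild type. The files of the genotypes differ in their identifier sets and in rows that name no gene, and the effect of whatever lies behind this cannot be told apart from that of genotype. Of the defining markers of the joint's cell types, the tendon regulator Scx had 0 counts in all 7 libraries, while Tnmd, a membrane protein of mature tendon cells, ranged from 182 to 361 CPM. The erythroid marker Alas2 was also at 0 in all 7, beside 2178 CPM or more of the haemoglobin gene Hbb-bs, so a 0 in these files is not read as a gene that is off.

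At 2 weeks after repair, 5 of these 6 collagen genes did not pass the test between genotypes, and the largest differences were in type V, in a fit without a term for base composition. Col5a3 was 1.61-fold higher in Tnc-/- than in wild type and was the 1 member of 6 past the threshold (edgeR quasi-likelihood test, adjusted p = 0.0461). Col5a1 was 1.55-fold higher, with every Tnc-/- library above every wild-type library, but it was not past the threshold (adjusted p = 0.094). With an offset for the GC content of transcripts both were smaller, at 0.17 and 0.19 on the log2 scale, neither was called (adjusted p = 0.499 and 0.571), and the value farthest from 0 was that of Col1a2 at -0.30. Without the offset both type I genes, Col3a1 and Col5a2 had fold changes between 0.992 and 1.20 that were smaller than the spread between mice. Over all genes tested, 29.0% were called (10.3% higher and 18.7% lower in Tnc-/-). With limma voom calls were mostly higher (728 higher and 276 lower), so the direction of the majority was not stable between methods. Beside 29.0%, 1 call among 6 is not more than the share of all genes. Unadjusted p was under 0.05 for 2 of the 6, beside 7533 of the 17791 genes tested.

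Col1a1, the chain present in 2 copies in the type I helix, was at 13858, 8024 and 10176 CPM in wild type 1 to 3 and at 9597, 11536, 11692 and 18574 CPM in Tnc-/- 1 to 4. Tnc-/- 4 was the highest of the 7 libraries and wild type 2 the lowest, and the groups overlapped. The means were 10686 ± 2950 (SD, n = 3) and 12850 ± 3933 CPM (SD, n = 4), a fold change of 1.20 with a 95% interval of 0.796 to 1.82 (adjusted p = 0.542). Col1a2, the partner chain of type I, was at 17800, 10287 and 13193 CPM in wild type and at 11578, 12476, 12822 and 19925 CPM in Tnc-/-. In each genotype 1 mouse was well above the others, wild type 1 and Tnc-/- 4. The fold change was 1.03, with an interval of 0.695 to 1.53 (adjusted p = 0.922). With library totals as scaling its log2 fold change turned from 0.05 to -0.19.

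Col3a1 was at 13328, 9237 and 10986 CPM in wild type and at 8930, 9697, 10120 and 15633 CPM in Tnc-/-. The lowest and the highest of the 7 values were both in Tnc-/-. The group means, 11184 ± 2052 (SD, n = 3) and 11095 ± 3065 CPM (SD, n = 4), gave a fold change of 0.992 with an interval of 0.688 to 1.43 (adjusted p = 0.981). With this spread between mice, differences inside that interval could not be resolved. Col3a1 and Col5a2 are neighbours on chromosome 1, lying tail to tail with 24.6 kb between them in GENCODE M21.

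Col5a1, the chain found in most type V molecules, was at 929, 719 and 813 CPM in wild type and at 964, 1053, 1198 and 1887 CPM in Tnc-/-. The groups did not overlap, although Tnc-/- 1 was close to wild type 1. Among all genes tested, 17.7% were higher in Tnc-/- without overlap. The means were 820 ± 105 (SD, n = 3) and 1276 ± 419 CPM (SD, n = 4), which is 0.64 on the log2 scale (SE 0.26) or 1.10 to 2.21 as the interval of the fold change. Without Tnc-/- 4, the library highest for every member, the log2 fold change was 0.38 (adjusted p = 0.182). Without wild type 1 it was 0.83 and past the threshold (adjusted p = 0.0115), and DESeq2 also called it (adjusted p = 0.0327). Over all genes tested these fits called 14113 of 21989 and 9423 of 29077. An antisense gene, 2810430I11Rik, overlaps Col5a1 by 99 bases of exon and had 0 to 41 counts, against 10818 to 36079 for Col5a1.

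Col5a3, a type V chain with a more restricted distribution, was the lowest of the 6, at 192, 124 and 129 CPM in wild type and 182, 231, 242 and 303 CPM in Tnc-/-. Wild type 1 was above Tnc-/- 1, so the groups overlapped by 1 library on each side. The means were 149 ± 38.0 (SD, n = 3) and 239 ± 49.7 CPM (SD, n = 4), which is 0.69 on the log2 scale (SE 0.22) or 1.19 to 2.18 as the interval of the fold change. The call changed with single libraries while the direction did not. Without wild type 2 the log2 fold change was 0.58 (adjusted p = 0.142), without wild type 3 it was 0.60 (adjusted p = 0.164), and without any 1 of the Tnc-/- libraries it was 0.55 to 0.78 (adjusted p = 0.0500 to 0.113). Without wild type 1 it was 1.01, past the threshold (adjusted p = 4.2e-04), in a fit that called 14113 of the 21989 genes tested. Without both wild type 2 and 3, which leaves 1 wild-type library, the log2 fold change was 0.28.

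Col5a2, whose chain joins that of Col5a1 in type V, was at 1886, 1272 and 1472 CPM in wild type and at 1361, 1413, 1540 and 2366 CPM in Tnc-/-. The groups overlapped over most of their range, with Tnc-/- 4 again on top. The means were 1543 ± 313 (SD, n = 3) and 1670 ± 470 CPM (SD, n = 4), a fold change of 1.08 with an interval of 0.770 to 1.52 (adjusted p = 0.762); with library totals as scaling the log2 value turned from 0.11 to -0.12. The 3 type V genes thus had fold changes of 1.55, 1.08 and 1.61 in the same libraries.

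**Figure D1:**
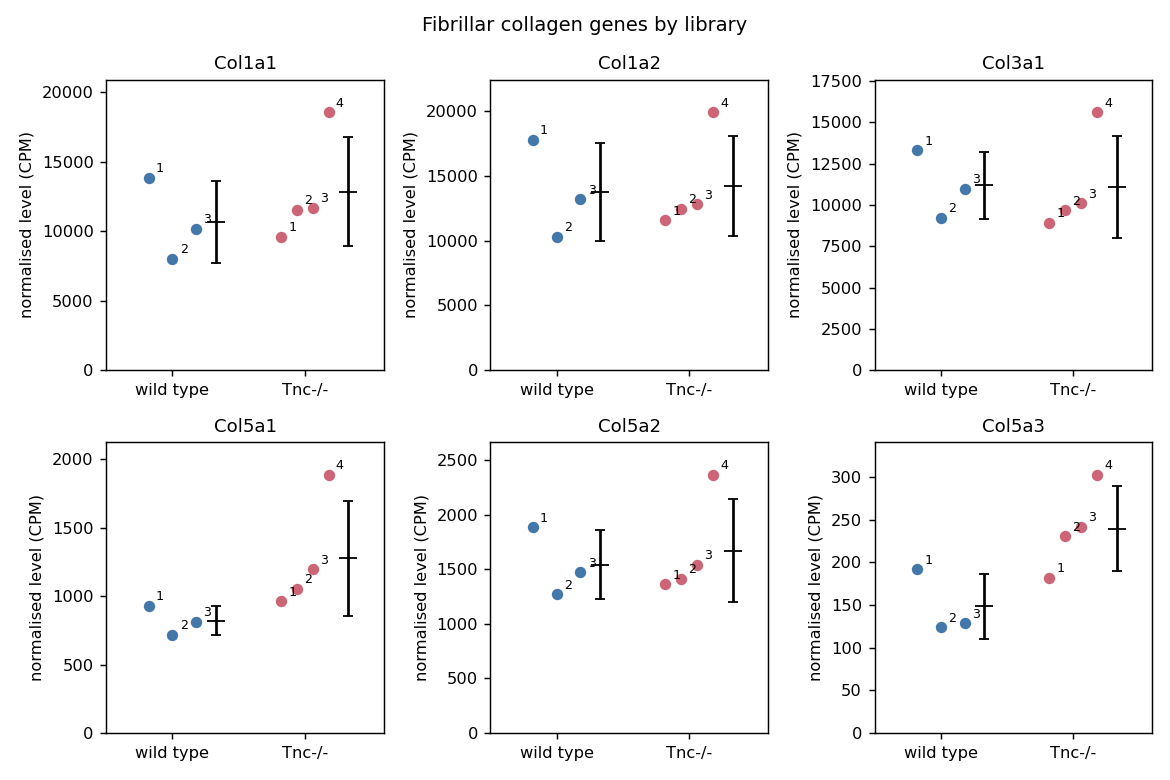
Normalised level in CPM of each of the 6 collagen genes, with 1 point per library numbered by replicate, wild type in blue and Tnc-/- in red; bars give the mean and SD of each genotype (n = 3 and n = 4) and every axis starts at 0. In all 6 panels wild type 1 is the highest wild-type library and Tnc-/- 4 the highest Tnc-/- library, and only for Col5a1 do the genotypes not overlap.

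The spread between mice had the same shape for all members. Among wild-type libraries all 6 genes were highest in wild type 1, at 1.21 to 1.52 times the mean of the other wild-type libraries, and lowest in wild type 2. Among Tnc-/- libraries all 6 were highest in Tnc-/- 4, at 1.39 to 1.76 times the mean of the others. Over all genes tested, Tnc-/- 4 was the highest Tnc-/- library for 27.9% and wild type 1 the highest wild-type library for 42.3%. The markers of cartilage cells moved with this: all 8 of 8 were highest among Tnc-/- libraries in Tnc-/- 4, where the list summed to 2108 CPM against 635 to 1427 in the other Tnc-/- libraries and 628 to 1404 in wild type. The 7 tested tendon cell markers summed to 4696 CPM in Tnc-/- 4, 2844 to 3466 in the other Tnc-/- libraries and 2882 to 3698 in wild type, but only 4 of the 7 were highest in Tnc-/- 4, where Egr1 was the lowest of the Tnc-/- values. Of the 8 general fibroblast markers, 7 were highest in Tnc-/- 4 and 7 in wild type 1 within their genotypes. They summed to 4078 to 5672 CPM in wild type and 3582 to 4426 in Tnc-/-, with Lum called lower and Pi16 higher. Osteoblast markers, from another cell that makes type I collagen, summed to 1177 to 1588 CPM in wild type and 1262 to 1544 in Tnc-/-. Of the 6 myofibroblast markers, 5 were highest in Tnc-/- 4 and 3 in wild type 1 within their genotypes. Their sums were 1580 to 2319 CPM in wild type and 1540 to 2892 in Tnc-/-, highest in Tnc-/- 4. The part of tissue makeup in the collagen levels was not tested.

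Summed over the 6 genes, collagen counts were 4.83, 3.32 and 4.17% of all gene counts in wild type and 3.13, 3.35, 3.49 and 5.36% in Tnc-/-. Tnc-/- 4 and wild type 1 were the highest, and Tnc-/- 1 the lowest. For the shallowest library, wild type 2, the 95% Wilson interval of the share was 3.31 to 3.33%, which covers counting error only. The means were 4.10 ± 0.760% (SD, n = 3) and 3.83 ± 1.03% (SD, n = 4), a difference within their spread (exact two-sided permutation test, p = 0.686). As TMM-scaled CPM the sums were 38141 ± 9241 and 41330 ± 11767 (exact p = 0.743), so the sign of this small difference turned with the scaling. Markers of other tissues take part in such shares: muscle markers summed to 20574 to 28447 CPM in wild type and 30455 to 45073 in Tnc-/-, erythroid markers to 4906 to 9435 and 13517 to 26465, and marrow myeloid markers to 2808 to 5864 and 6461 to 11007. Their part in the collagen share was not tested.

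Levels of different genes were compared as CPM per kb of the longest transcript. In wild type Col1a2 was at 2573 ± 708, Col3a1 at 2010 ± 369 and Col1a1 at 1802 ± 497 CPM per kb (SD, n = 3). Their ranges over the mice overlapped, but within every wild-type library the order was Col1a2, Col3a1, Col1a1. Type V was several-fold lower, with Col5a2 at 233 ± 47.3, Col5a1 at 97.6 ± 12.5 and Col5a3 at 24.3 ± 6.21 CPM per kb, and no library of one overlapped a library of the next. In Tnc-/- the order was Col1a2 at 2655 ± 720, Col1a1 at 2167 ± 663, Col3a1 at 1994 ± 551, Col5a2 at 252 ± 71.0, Col5a1 at 152 ± 49.8 and Col5a3 at 39.1 ± 8.11 CPM per kb (SD, n = 4), and in every Tnc-/- library Col1a1 was above Col3a1. There the highest Col5a1 library, at 224.5, lay above the lowest Col5a2 library, at 205 CPM per kb. The order of the 3 abundant genes depended on the length used: per kb of merged exons, Col1a2 was at 1107 in wild type, below Col1a1 at 1628 and close to Col3a1 at 1139 CPM per kb.

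**Figure D2:**
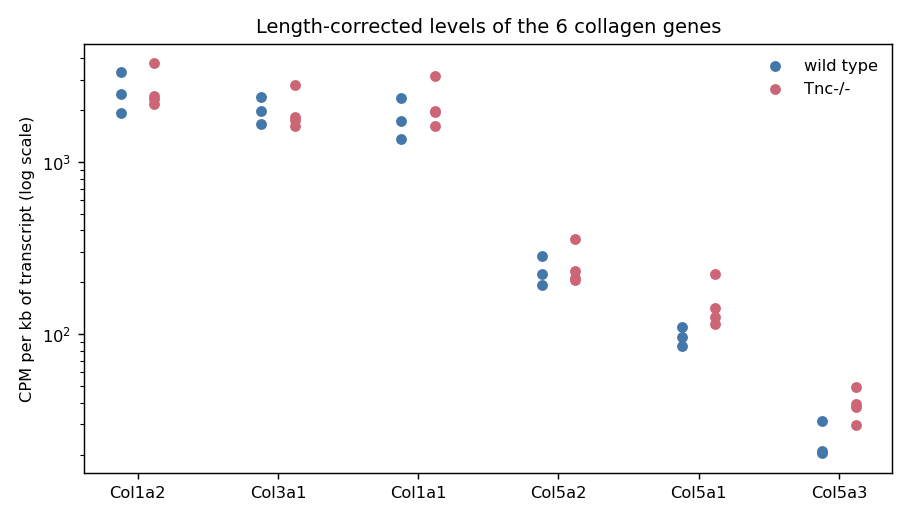
Level of each gene in CPM per kb of its longest transcript, on a log axis, with 1 point per library, wild type in blue and Tnc-/- in red, genes ordered by the wild-type mean. Col1a2, Col3a1 and Col1a1 lie together at the top, between 1353 and 3726 CPM per kb, and Col5a2, Col5a1 and Col5a3 step down from 233 to 97.6 and 24.3 CPM per kb in wild type.

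Ratios of counts between chains within a library need no scaling between libraries. Some were nearly constant: in wild type the highest Col1a2 to Col1a1 ratio was 1.01 times the lowest, where the levels of the 2 genes spanned 1.73-fold each. Of 10 ratios compared, 6 separated the genotypes without overlap, 3 lower and 3 higher in Tnc-/-. Each of the 6 had an exact two-sided permutation p of 0.0571, the smallest that the 35 splits of these 7 libraries allow, and 0.0952 after Benjamini-Hochberg adjustment over the 10. This permutation test therefore cannot pass 0.05 with these group sizes, and each ratio is given with its values.

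The Col1a2 to Col1a1 ratio, between the partner chains of type I, was 1.28, 1.28 and 1.30 in wild type, compared with 1.21, 1.08, 1.10 and 1.07 in Tnc-/-. The 3 wild-type values were nearly equal and all Tnc-/- values lay below them, a log2 difference of -0.21, or -0.09 with overlap when the GC offset was applied. The Col3a1 to Col1a1 ratio was 0.962, 1.15 and 1.08 in wild type, compared with 0.930, 0.841, 0.866 and 0.842 in Tnc-/-. Wild type 1 came close to Tnc-/- 1, and the log2 difference was -0.29, whereas with the GC offset it was 0.02 and the groups overlapped. Among the genes tested, 13.2% had a lower ratio to Col1a1 in Tnc-/- without overlap and 3.69% a higher one.

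The Col5a1 to Col1a1 ratio was 0.0671, 0.0896 and 0.0799 in wild type, compared with 0.100, 0.0913, 0.102 and 0.102 in Tnc-/-. The gap was narrow, between wild type 2 and Tnc-/- 2, and the log2 difference was 0.34. The Col5a3 to Col1a1 ratio was 0.0139, 0.0155 and 0.0127 in wild type, compared with 0.0190, 0.0200, 0.0207 and 0.0163 in Tnc-/-. The lowest Tnc-/- library was Tnc-/- 4, the one with the highest Col5a3 level, and the log2 difference was 0.44.

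The Col5a2 to Col5a1 ratio, between the chains of the usual type V molecule, was 2.03, 1.77 and 1.81 in wild type, compared with 1.41, 1.34, 1.29 and 1.25 in Tnc-/-. The groups were far apart, with a log2 difference of -0.50, the largest in size of the 10 ratios, whereas with the GC offset it was -0.05 and the groups overlapped. Over all genes tested, 32.6% had a lower ratio to Col5a1 in Tnc-/- without overlap and 1.16% a higher one. The Col5a2 to Col3a1 ratio of the neighbouring genes was 0.141, 0.138 and 0.134 in wild type and 0.152, 0.146, 0.152 and 0.151 in Tnc-/-. It was higher in Tnc-/- by 0.13 on the log2 scale, beside 10.6% of all genes that had a higher and 10.5% a lower ratio to Col3a1 without overlap.

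The other 4 ratios overlapped between the genotypes. Col5a2 to Col1a1 differed by -0.16 on the log2 scale, Col3a1 to the type I sum by -0.17 and the type V sum to the type I sum by 0.17, each with an exact adjusted p of 0.127. Col5a3 to Col5a1 was 0.207, 0.173 and 0.159 in wild type and 0.189, 0.219, 0.202 and 0.161 in Tnc-/-, a log2 difference of 0.10 (exact adjusted p = 0.571) that fell between 0.017 and 0.21 when 1 library was left out, lowest without wild type 3 and highest without wild type 1. Without wild type 2, Col5a2 to Col1a1 was at -0.10 and Col3a1 to the type I sum at -0.11. Without wild type 2 and 3, Col3a1 to Col1a1 was at -0.15 and Col5a1 to Col1a1 at 0.56. These type V chains, with fold changes of 1.61 and 1.55, thus kept a ratio that did not separate the genotypes.

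**Figure D3:**
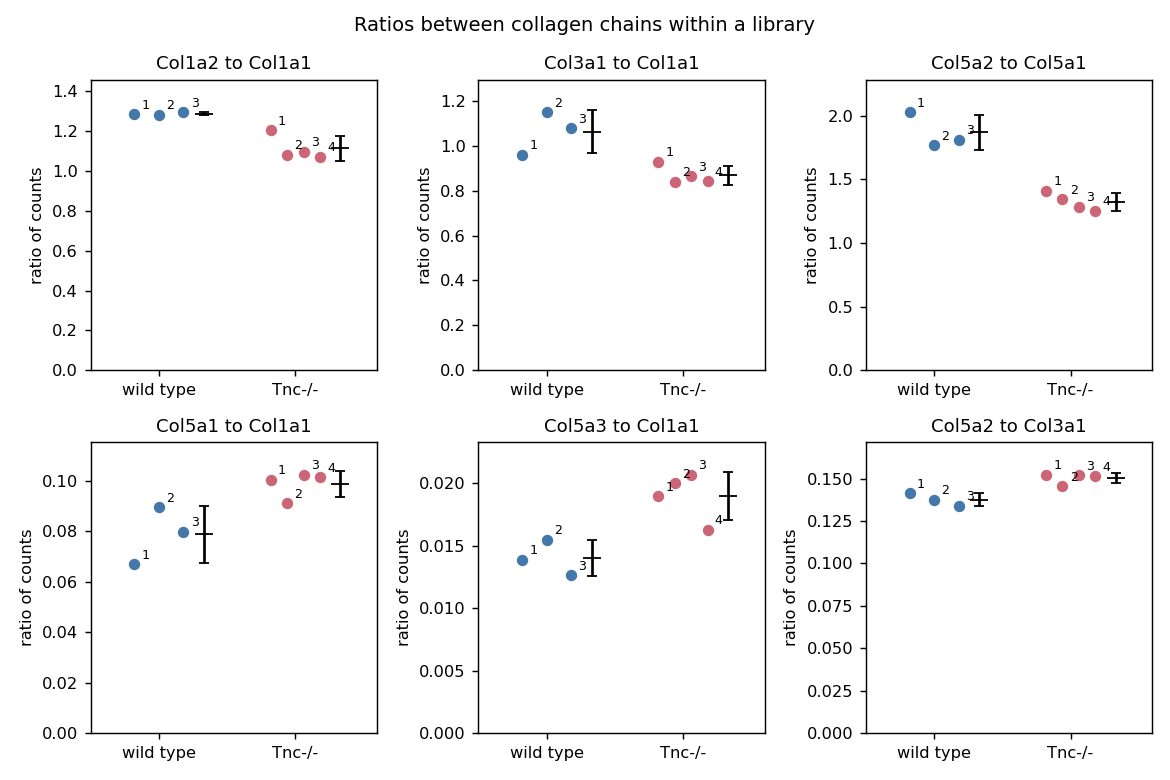
Ratio of counts between 2 collagen genes within each library, with 1 numbered point per library, wild type in blue and Tnc-/- in red; bars give the mean and SD of each genotype (n = 3 and n = 4) and axes start at 0. In all 6 panels the genotypes do not overlap, with Tnc-/- lower in the upper row and higher in the lower row.

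GC content of the longest transcript was 49.6% in Col5a2, 52.5% in Col3a1, 55.7% in Col1a2, 58.0% in Col5a1, 58.9% in Col1a1 and 61.6% in Col5a3. Of the 6 separated ratios, 4 were higher in Tnc-/- where the first gene has the higher GC and lower where it has the lower GC. The other 2, Col5a1 to Col1a1 and Col5a2 to Col3a1, ran against GC. Over all genes tested, the median log2 fold change rose with GC, from -0.46 in the 1128 genes below 40% to -0.26, -0.12, 0.16 and 0.40 in the classes up to 45, 50, 55 and 60%, and to 0.47 in the 696 genes at 60% or more. Against wild type 1 alone the lowest and highest classes were at -0.34 and 0.37. When each library's trend with GC was taken up as an offset in the fit, a step chosen after the data were seen, 21.7% of genes were called and none of the 6 members was. Without the offset, DESeq2 called Col5a3 (adjusted p = 0.0138) and Col5a1, and limma voom called neither (adjusted p = 0.0833 and 0.133). Over all genes tested DESeq2 called 9423 of 29077 and limma voom 1004 of 17791.

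With the GC offset Col5a3 had a log2 fold change of 0.17 (adjusted p = 0.499) and Col5a1 one of 0.19 (adjusted p = 0.571). Col5a2, with the lowest GC, moved least, from 0.11 to 0.12. Col3a1 was then at -0.17, Col1a2 at -0.30 and Col1a1 at -0.20, none past the threshold. Among the ratios, Col3a1 to Col1a1 was at 0.02 on the log2 scale, Col1a2 to Col1a1 at -0.09 and Col5a2 to Col5a1 at -0.05, and none of these 3 separated the genotypes any longer, nor did Col5a3 to Col1a1 at 0.38. After the offset 4 ratios separated them, all higher in Tnc-/-: Col5a1 to Col1a1 by 0.36, Col5a2 to Col1a1 by 0.31, Col5a2 to Col3a1 by 0.29 and the type V sum to the type I sum by 0.38 on the log2 scale. Each had an exact p of 0.0571 and an adjusted p of 0.143. With the offset, 14.9% of all genes tested had a higher ratio to Col1a1 in Tnc-/- without overlap and 8.57% a lower one. The shares were 11.9% and 8.95% for the ratio to Col3a1, 17.3% and 8.20% for that to the type I sum, and 2.23% and 16.8% for that to Col5a1. The type V to type I ratio was thus higher in Tnc-/- on average with and without the offset, and without overlap only with it. Its log2 difference without the offset, 0.17, was 0.11 when wild type 1 was left out and 0.31 when wild type 2 and 3 were. The genotype, the libraries and the form of the files change together, so their parts in the trend with GC cannot be told apart.

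**Figure D4:**
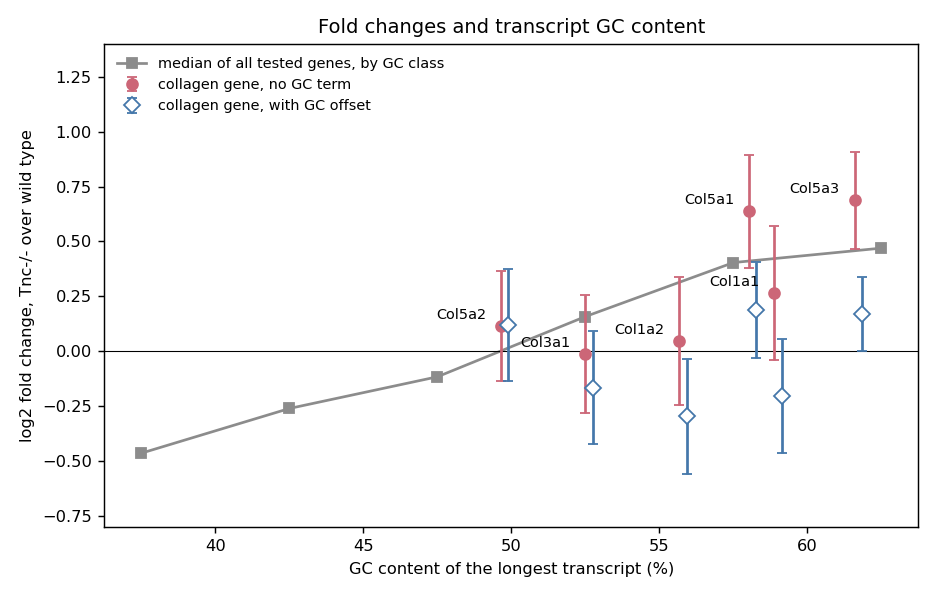
Log2 fold change of Tnc-/- over wild type against GC content of the longest transcript in percent, for the 6 collagen genes without a GC term (red circles) and with the GC offset (open blue diamonds, drawn slightly to the right), bars giving SE; grey squares give the median of all tested genes in each GC class at the middle of the class. Col5a1 and Col5a3, at 58.0 and 61.6% GC, lie highest without the offset at 0.64 and 0.69 and fall to 0.19 and 0.17 with it.

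The genes nearest to 3 of the members in their pattern over the 7 libraries were ranked by the root mean square difference of log2 deviations from each gene's mean, among 8239 genes whose mean was 20 CPM or more. Nearest to Col3a1 were Col12a1, a fibril-associated collagen, at 0.04, the cyclophilin gene Ppic and the gelatinase gene Mmp2 at 0.05, and Mxra8 and Acta2 at 0.06. Nearest to Col1a1 were Kdelr1, a receptor that returns proteins to the endoplasmic reticulum, at 0.06, and Igfbp4, Fscn1, Col6a3 and Tmem119 at 0.09. Nearest to Col5a1 were Nfatc4 at 0.08, Aebp1, a collagen-binding matrix protein, at 0.09, Scarf2 and Ltbp3 at 0.10 and Mrc2, a collagen uptake receptor, at 0.10. Among the members, Col5a2 ranked 11 and Col1a2 18 in likeness to Col3a1, while Col1a1 ranked 193, Col5a1 2594 and Col5a3 4384. Col5a3 ranked 48 in likeness to Col5a1, ahead of Col1a1 at 140 and of its partner Col5a2 at 546. These ranks are a description of 7 libraries whose depth and marker sums differ.

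Genes that make, process and hold these collagens were read from lists by role, 97 tested genes in all, of which 15 (15.5%) were called, 8 higher and 7 lower in Tnc-/-, beside 29.0% of all genes. Their median log2 fold change was 0.03, and that of all genes was -9.0e-04. Of the 97, 64 were highest among Tnc-/- libraries in Tnc-/- 4 and 68 highest among wild-type libraries in wild type 1, the same libraries in which the members were highest.

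Of the 5 other fibrillar collagen genes, 2 were called, both higher. Col27a1, a collagen of cartilage, had means of 83.8 ± 11.9 and 152 ± 26.3 CPM in wild type and Tnc-/- (SD), 0.86 higher on the log2 scale (adjusted p = 0.00954). Col11a2, a chain of cartilage type XI, was at 276, 169 and 140 CPM in wild type and at 359, 337, 471 and 624 CPM in Tnc-/-. Its log2 fold change was 1.20 (adjusted p = 0.0193). With the GC offset these were 0.38 and 0.66 and not past the threshold (adjusted p = 0.0642 and 0.0727). Col2a1, the main cartilage collagen, ranged from 368 to 991 CPM in wild type and from 363 to 1380 in Tnc-/- and was not called.

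Of 14 tested transcriptional regulators of collagen genes, 1 was higher and 1 lower. Srf, which drives genes of contractile fibroblasts and muscle, was at 51.4 ± 5.90 CPM in wild type and 85.2 ± 8.89 in Tnc-/- (log2 fold change 0.73, adjusted p = 0.00835). Mkx, a regulator of tendon collagen, was at 11.9 ± 1.76 and 6.29 ± 0.821 CPM (log2 fold change -0.92, adjusted p = 0.0379). Of 15 chain-modifying enzymes, 1 was lower: P3h2, a prolyl hydroxylase, at 18.8, 50.3 and 27.9 CPM in wild type and 13.7 to 19.5 in Tnc-/-. Its wild-type mean rested on wild type 2 and 3, and wild type 1 lay within the Tnc-/- range. Of 11 chaperone and secretion genes, 1 was lower: Sec23a, of the coat that carries procollagen from the endoplasmic reticulum, was at 54.6 ± 2.32 and 35.3 ± 2.88 CPM (log2 fold change -0.63, adjusted p = 0.00908). Serpinh1, the collagen chaperone, was at 0.03 on the log2 scale (adjusted p = 0.94).

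Of 9 tested genes that cut or help to cut the end pieces of procollagen, 3 were lower and 1 higher. Tll1 was at 4.78, 24.7 and 23.4 CPM in wild type and 3.81 to 5.24 in Tnc-/-, and Adamts3 at 9.28, 31.8 and 21.1 CPM in wild type and 6.05 to 9.78 in Tnc-/-. For both, wild type 1 lay within the Tnc-/- range and the difference came from wild type 2 and 3. Mep1b had 10, 171 and 152 counts in wild type and 0, 1, 0 and 0 in Tnc-/-, again with most counts in wild type 2 and 3. Adamts14 was higher, at 0.75 on the log2 scale (adjusted p = 0.0342). None of 6 crosslinking genes was called by edgeR, DESeq2 or limma voom with their default scaling, and 0 had an unadjusted p under 0.05 in edgeR. In edgeR with library totals 1 was called, Lox, lower at -0.67 on the log2 scale, and with the GC offset 1, Loxl1, also lower. Lox, the main crosslinking oxidase, was at 240 ± 56.5 and 178 ± 27.5 CPM (log2 fold change -0.43, adjusted p = 0.126), and Loxl2 at 253 ± 19.8 and 246 ± 56.4 CPM.

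Of 16 tested genes of fibril assembly, 1 was higher and 1 lower. Tnxb, for a tenascin that binds collagen fibrils, was at 215, 156 and 135 CPM in wild type and at 381, 362, 479 and 423 CPM in Tnc-/-. All Tnc-/- libraries lay above all of wild type, with a log2 fold change of 1.28 (SE 0.20, adjusted p = 0.00670), and with the GC offset it was 0.80 (adjusted p = 0.0128). Lum, a small proteoglycan on fibrils, was at 1418 ± 293 and 916 ± 139 CPM (log2 fold change -0.63, adjusted p = 0.0482). Of 12 receptors of collagen 1 was called, Adgrg1, a receptor for type III collagen, at 38.1 ± 4.92 and 65.3 ± 7.24 CPM. Of 9 tested genes of collagen breakdown 2 were higher, the neutrophil collagenase Mmp8 at 50.6 ± 18.6 and 99.3 ± 24.4 CPM and the dipeptidase Pepd at 40.9 ± 2.41 and 56.9 ± 3.10 CPM. Mmp8 was higher beside the marrow myeloid markers, of which 5 of 9 were called higher and all 9 had a positive fold change; their part in it was not tested.

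Calls among these pathway genes differed in how they held. When any 1 library was left out, Tnxb, Srf, Sec23a, Adgrg1 and Col27a1 stayed past the threshold, with a highest adjusted p of 0.0323, 0.0419, 0.0413, 0.0395 and 0.0478. With the GC offset Tnxb kept the call (log2 fold change 0.80), but it lost it with the background covariate (adjusted p = 0.0987) and with offset and block together (0.0568). With the offset Srf at 0.18, Sec23a at -0.37 and Adgrg1 at 0.42 on the log2 scale lost it, as Col27a1 did (adjusted p = 0.345, 0.0682 and 0.0662 for the first 3). Sec23a also lost it with the replicate number as a block (-0.65, adjusted p = 0.0522). Mep1b kept the call in every fit that left out 1 library (highest adjusted p = 0.0323), and Adamts14 kept it only without wild type 1. Col11a2, Mkx, P3h2, Tll1, Adamts3, Lum, Mmp8 and Pepd each lost the call without at least 1 library, with a highest adjusted p between 0.0618 for Pepd and 0.151 for Lum. With the background covariate 1 of the 97 genes was called, beside 520 of the 17791 genes tested. It was Mrtfa, a cofactor of Srf, named here after its values were seen. With the GC offset Mrtfa was at -0.07 on the log2 scale, against 0.40 without.

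**Figure D5:**
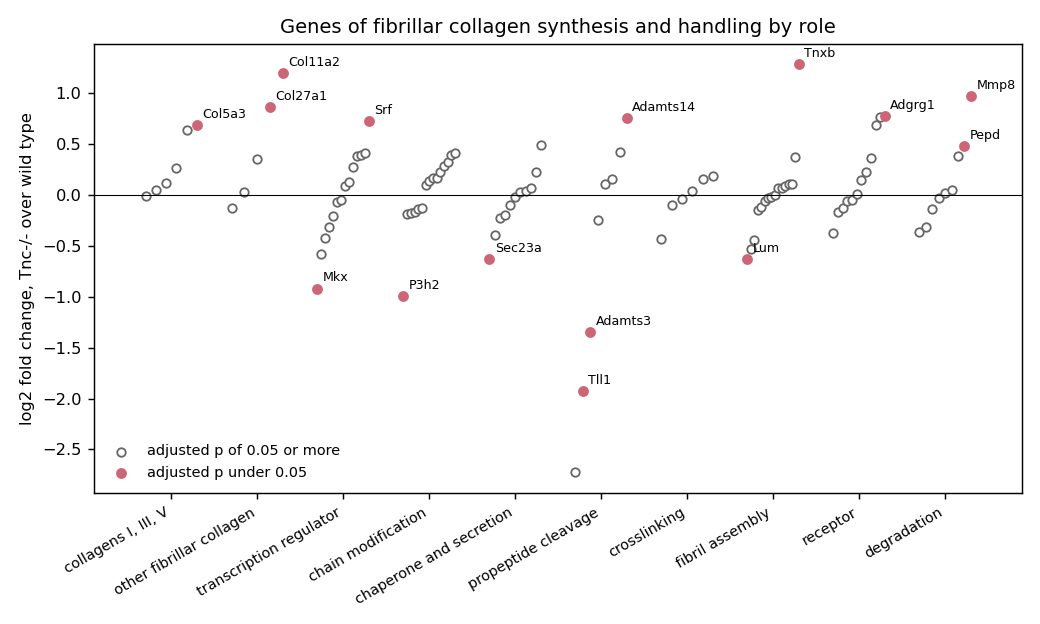
Log2 fold change of Tnc-/- over wild type for the 6 collagen genes and the tested genes of each role, 1 point per gene ordered by value within its role, with filled red points for an adjusted p under 0.05 and their names. Most points lie within 0.5 of 0 on the log2 scale; Mep1b, with 0 or 1 counts in every Tnc-/- library, is left out.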

How the data were processed

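RNA of whole shoulder joints was enriched for poly(A) and made into libraries with a NEBNext Ultra kit, per the labels' protocols. The submitters' processing notes name FastQC 0.11.9, HISAT2 2.2.1, HTSeq 2.0.2, DESeq2 1.38.3 and the build GRCm39; the annotation, the strand setting and which step used which tool are not given in the sources used here. The authors deposited unnormalised read counts for each gene, with 1 file per library. Wild-type files list 56980 identifiers and Tnc-/- files 56941, with 126 and 87 in one kind alone. Tnc-/- files also hold 5 rows that name no gene, 30.1 to 32.7% of their reads, which were left out. No value column was left unmapped (0 columns).

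Groups follow the genotype label. Replicates are separate mice, and p-values measure the spread between these 7 libraries. All tests across genes used the whole table: edgeR 4.0.16 in R 4.3.3 with its default filter, TMM scaling and the robust quasi-likelihood F test, Benjamini-Hochberg adjusted, with 0.05 as threshold for a call. CPM are TMM-scaled. SE is the log2 fold change over the root of F. The 95% intervals use the normal multiplier of SE, which makes them narrower than intervals matched to the F test. Ratios and sums were compared by exact two-sided permutation over 35 splits. Lengths and GC come from GENCODE M21, which held 98.2% of tested genes. Its assembly is not that of the files, so no gene coordinates are given. The fit was tested on simulated counts with the same spread in both genotypes and no trend with GC. The wild-type libraries here spread more (0.591 against 0.172 in Tnc-/-), so that test does not give error rates for these data.

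Named pathway genes are those called with the smallest p, at most 3 a role, or where none was called the 2 with the highest mean; Col2a1, Serpinh1 and Adamts14 were added after their values were seen. Of the listed genes, Scx, Ogn, Aspn, Timp1 and Timp3 had 0 counts in all libraries, Mep1a and Mmp1a were below the filter and 1 symbol was not matched. Members, lists and tests were chosen with earlier results of these data known. Alternatives were DESeq2 1.42.0, limma 3.58.1 voom, other scalings and filters, leaving out libraries, a replicate block, a background covariate (the receptor genes' mean log2 CPM) and, added after the data were seen, a GC offset (loess, span 0.3) alone or combined.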

Additional observations from a re-analysis of the deposited data

Results flagged for a closer look

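In 3 of 18 values tested for a library far from the rest of its group, the gap to the nearest other Tnc-/- library, divided by the range of the 4, exceeded Dixon's 95% critical value for 4 samples. Chance alone gives about 1 such group in 20, and these values share libraries and genes. Col1a2 was high in Tnc-/- 4 (19925 CPM against 11578 to 12822 in the others), with a gap of 0.851 of the range. The summed share of the 6 collagen genes was also high in Tnc-/- 4, with a gap of 0.838. The Col5a2 to Col3a1 ratio was low in Tnc-/- 2 (0.146 against 0.151 to 0.152), with a gap of 0.847. The causes were not tested.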

How the results depend on the processing

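Under 20 alternative fits Col5a3 was called in 4 and Col5a1 in 2, and Col1a1, Col1a2, Col3a1 and Col5a2 in none. Col5a3 was no longer past the threshold with limma voom (log2 fold change 0.70), DESeq2 size factors (0.65), library totals (0.46), at least 10 counts in every library (0.61) or a background covariate (0.23). Nor was it with the GC offset (0.17). Without wild type 2 and 3 the log2 fold change of Col5a3 was 0.28, and with the offset as well -0.14. DESeq2 called Col5a1 (0.61). Leaving out 1 library gave 0.55 to 1.01 for Col5a3, 0.38 to 0.83 for Col5a1, 0.03 to 0.59 for Col1a1, -0.17 to 0.37 for Col1a2, -0.23 to 0.23 for Col3a1 and -0.10 to 0.38 for Col5a2.

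Replicate numbers did not pair the mice, since deviations of same-numbered libraries correlated at -0.03, 0.07 and -0.01. With the replicate number as a block, Col5a3 was at 0.57 (adjusted p = 0.161), Col1a2 at -0.13 and Col5a2 at -0.087, with 1713 genes and 6 pathway genes called. With block and GC offset, Col1a1 was at -0.36, Col1a2 at -0.45, Col5a1 at -0.010, Col5a2 at -0.073 and Col5a3 at 0.11, with 1157 genes and 2 pathway genes called. The ratio of Col3a1 to Col1a1 was then at 0.0069, Col5a2 to Col1a1 at 0.28 and Col3a1 to the type I sum at 0.054.

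Other changes of sign were these. The background covariate gave -0.23 for Col1a1, -0.46 for Col1a2 and -0.27 for Col5a2. Without wild type 2 and 3 these were -0.15, -0.36 and -0.21, and with the GC offset as well -0.51, -0.62 and -0.25. The GC offset alone gave -0.20 for Col1a1 and -0.30 for Col1a2. Library totals, which put the median of all genes at -0.24, gave -0.19 for Col1a2 and -0.12 for Col5a2. At least 10 counts in every library gave -0.029 for Col1a2, and no filter 0.063 for Col3a1. With the GC offset the Col3a1 to Col1a1 ratio was at 0.025, Col5a2 to Col1a1 at 0.31 and Col3a1 to the type I sum at 0.073, and without wild type 2 and 3 as well at 0.057, 0.25 and 0.12. Col5a3 to Col5a1 was at -0.11 without wild type 2 and 3, and at -0.20 with the offset too. The summed share was lower in Tnc-/- by -0.12 on the log2 scale, against 0.11 as TMM-scaled CPM and -0.29 to 0.0094 when leaving out 1 library. The causes were not tested.

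Genes called numbered 5159 (64.5% lower in Tnc-/-), 2229 to 14113 when leaving out 1 library, 9423 with DESeq2, 1004 with limma voom, 520 with the background covariate, 212 without wild type 2 and 3 and 51 with the GC offset as well; library totals gave 82.7% lower and the GC offset 75.5%, but limma voom 27.5%, leaving out wild type 2 and 3 25.9% and that with the GC offset 33.3%. Pathway genes called numbered 15, and 6 to 32 when leaving out 1 library, 5 with limma voom, 1 with the background covariate, 1 without wild type 2 and 3, 7 with the GC offset and 0 with both. The background covariate turned P3h2 to 0.10, Tll1 to 0.44 and Adamts3 to 0.16. The GC offset turned Mrtfa to -0.068. Loxl2 was at 0.036 with no filter and at -0.22 to 0.10 when leaving out 1 library. The permutation test used for ratios cannot go below 0.0571 with 3 and 4 mice.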

Other observations

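Glycine codon use in the helix run differed between chains of 1 molecule in the reference transcripts. GGT made up 55.9 and 51.6% of glycine codons in Col1a1 and Col1a2, 41.3% in Col3a1, and 28.1, 35.1 and 25.2% in Col5a1, Col5a2 and Col5a3. GC of the run was 65.4% in both Col5a1 and Col5a3 and 59.9% in Col5a2, and the rest of the coding sequence was at 56.2, 58.7 and 47.0%. Col5a2 is thus closer to Col3a1, its neighbour on chromosome 1, whose run and rest were at 60.9 and 47.3%.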
